A study of Mus musculus with 8 samples.

Results

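The 10 genes described here are transcription factors that start, drive or restrain the formation of fat cells: Pparg, Cebpa, Cebpb, Cebpd, Ebf1, Ebf2, Ebf3, Zfp423, Zfp467 and Zfp521. Every probe set that the platform annotation assigns to exactly 1 symbol among these names was used, which gave 21 of the 45141 probe sets and 10 of the 17097 named genes on the array. Expression was measured in dermal fibroblasts from 4 old mice (18 months) and 4 young mice (2 months). All mice were C57Bl/6 males without a named transgene or treatment, and each array holds the RNA of 1 mouse. Skin freed of its subdermis was digested, and 5000 cells per mouse were sorted as Pdgfra and CD34 positive and CD45, CD117, CD24, CD31 and EpCam negative, per the labels' protocols. Values are the authors' log2 expression values (RMA), and differences are old minus young on the log2 scale.

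Fat cells form from fibroblast-like precursors. In cell culture, Cebpb and Cebpd are induced early and activate Pparg and Cebpa, which then maintain each other and switch on the genes of the mature fat cell. The early B-cell factors Ebf1, Ebf2 and Ebf3 are related DNA-binding proteins, and Ebf1 acts both in B-cell development and in fat cell formation. Zfp423, a zinc finger protein of committed fat precursors, and its paralogue Zfp521, which is known to restrain fat cell formation, both bind Ebf1. Zfp467 is a zinc finger protein that favours fat cells over osteoblasts in marrow stroma.

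Array medians lay between 5.06 and 5.14. A probe set is called dim below where its mean over the 8 arrays was at or under 5.10, the median of all probe sets' means, and the 23 non-specific control probe sets had a median of 3.91. The 10 fibroblast markers, collagens and decorin among them, averaged 10.57 to 10.71 on the old arrays and 10.65 to 10.77 on the young arrays, and 9 of them were above the dim threshold. The exception was the sorting marker Pdgfra, whose single probe set averaged 4.47 ± 0.28 in old mice and 5.06 ± 0.25 in young mice (SD, n = 4 each). Cd34, the other positive sorting marker, averaged 11.01 in old and 10.82 in young mice. Ptprc (CD45) averaged 3.51 in old and 3.43 in young mice, and Kit (CD117) 3.82 and 3.79. Pecam1 (CD31) averaged 6.06 in old and 5.89 in young mice, and Epcam 5.45 and 5.05. Cd24a (CD24) averaged 5.33 in old and 8.07 in young mice, the largest difference among these sorting genes (limma adjusted p = 0.000785). On bulk arrays, fewer cells that carry a transcript and less of it per cell cannot be told apart.

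Ebf1 and Zfp521 were higher in old fibroblasts, and the other 8 factors did not pass the test. Ebf1 was 1.81-fold and Zfp521 2.21-fold higher in old mice. With 1 probe set per gene and an adjusted p under 0.05 over all genes, limma called 2 of the 10 factors higher, where it called 1.82% of all genes higher. It called 0 of the 10 lower, where it called 2.15% of all genes lower, and 0 were lower at an unadjusted p under 0.05, as 8.28% of all genes were. At that unadjusted threshold 3 of the 10 were higher, as 6.8% of all genes were. By p, Zfp521 ranked 242 and Ebf1 252 among the 17097 genes, and by size of increase 57 and 110. The median difference of the 10 factors was 0.11, beside 0.01 over all genes. The mean was higher in old mice for 8 factors and lower for the other two, Ebf2 and Ebf3.

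**Figure D1:**
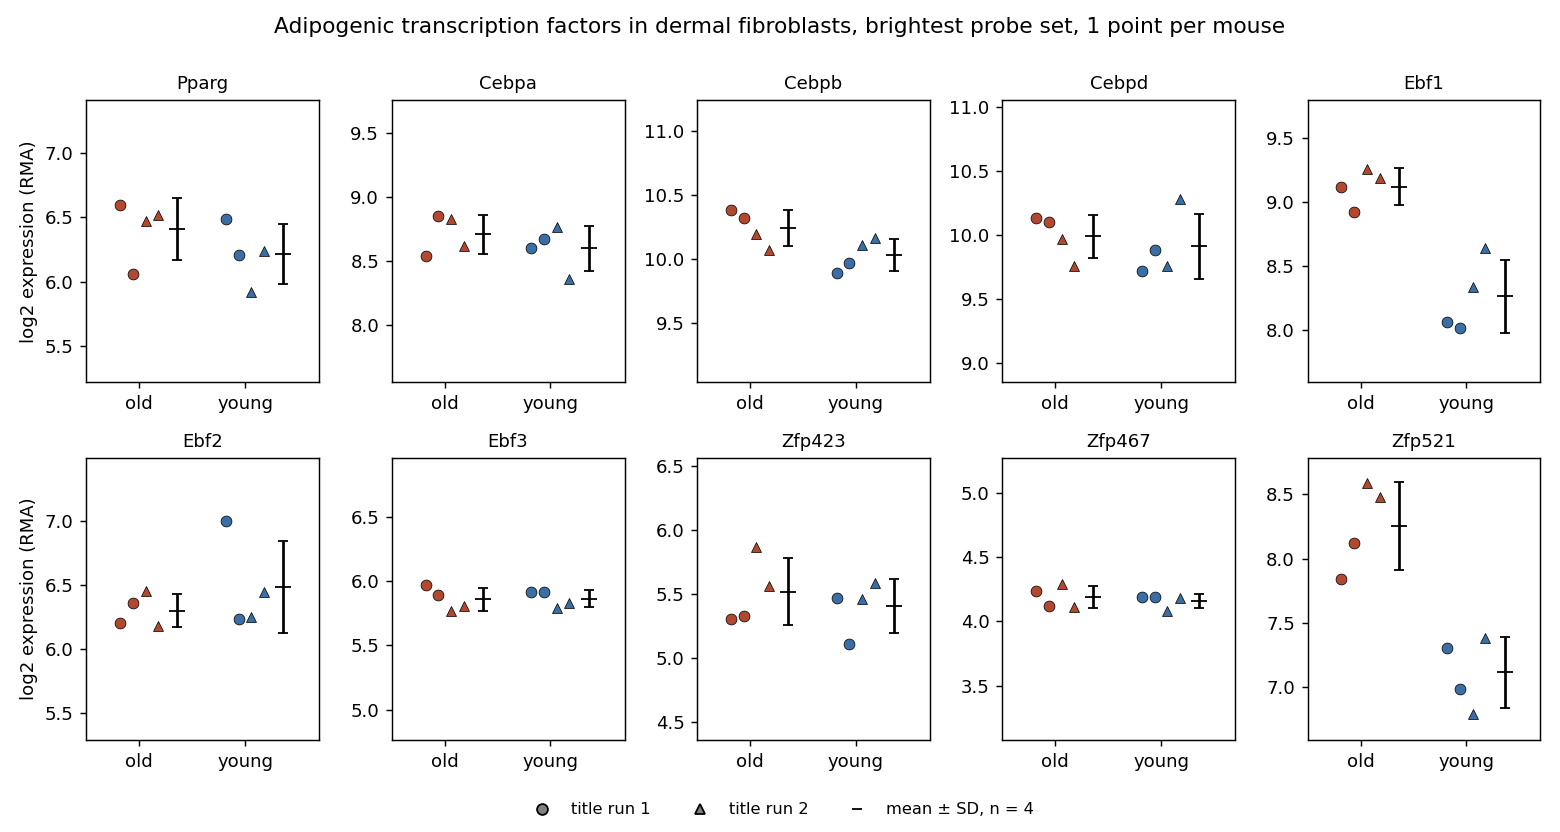
Log2 expression (RMA) of the brightest probe set of each of the 10 factors in 4 old and 4 young mice, with 1 point per mouse and bars for the mean ± SD (n = 4). Circles and triangles mark the mice of the first and second run of title numbers. Old and young mice are apart for Ebf1 and Zfp521 and overlap for the other 8 factors.

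Ebf1 drives Pparg and Cebpa expression when forced into cultured fibroblasts, and it was read by 3 probe sets. On the brightest, 1416301_PM_a_at, old mice had values of 9.12, 8.92, 9.26 and 9.19, and young mice had 8.07, 8.02, 8.34 and 8.64. All 4 old mice lay above all 4 young mice, with 0.28 between the lowest old and the highest young value. Ebf1 averaged 9.12 ± 0.15 in old and 8.27 ± 0.29 in young mice (SD, n = 4 each), a difference of 0.86 ± 0.14 (SE, limma adjusted p = 0.00859, 95% interval 0.54 to 1.17).

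The other Ebf1 probe sets moved with it. On 1416302_PM_at, old mice had 7.67, 7.82, 7.68 and 7.91 and young mice 6.82, 7.00, 6.65 and 7.15, a difference of 0.87 ± 0.11 (limma adjusted p = 0.00464 over all probe sets). On 1448293_PM_at, old mice had 6.52, 6.44, 6.85 and 7.03 and young mice 5.71, 5.65, 5.66 and 5.80, a difference of 1.01 ± 0.13 (limma adjusted p = 0.00417 over all probe sets). On both, the groups were apart, by 0.52 and by 0.64. The young mice lay close together on the dimmest of the 3 probe sets (SD 0.07), and the old mice were spread more widely (SD 0.28). Probe sets of a gene read the same transcripts and are not replicates.

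RefSeq lists 2 start sites for Ebf1 in the promoter table used here (GRCm38.p6). They are shown because Ebf1 is the called factor whose promoter windows were used here. Ebf proteins bind a palindromic core, searched here on both strands as CCCNNGGG. Each window runs from 250 bases before to 50 bases after the start, 5′ to 3′ on the plus strand of chromosome 11, and capitals would mark the core.
Ebf1 start 1, chr11:44617850-44618149: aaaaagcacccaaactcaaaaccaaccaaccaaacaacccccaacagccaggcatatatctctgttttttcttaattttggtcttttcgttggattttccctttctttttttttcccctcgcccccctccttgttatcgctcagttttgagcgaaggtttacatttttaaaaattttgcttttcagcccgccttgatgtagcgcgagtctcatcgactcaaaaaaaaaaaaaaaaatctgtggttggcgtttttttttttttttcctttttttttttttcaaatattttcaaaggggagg
Ebf1 start 2, chr11:44619978-44620277: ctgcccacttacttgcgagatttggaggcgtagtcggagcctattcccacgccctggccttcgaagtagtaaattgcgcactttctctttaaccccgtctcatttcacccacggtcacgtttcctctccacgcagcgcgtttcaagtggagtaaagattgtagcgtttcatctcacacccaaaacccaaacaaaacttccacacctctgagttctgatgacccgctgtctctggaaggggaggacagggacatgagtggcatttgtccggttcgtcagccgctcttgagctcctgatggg
Neither window held the core, which 13.7% of the 32851 promoter windows searched held at least once. Among the 11 windows of the 7 factors whose windows were used, it occurred in 4, those of Cebpb, Ebf3, Zfp467 and 1 of the 2 windows of Zfp423. A match is a run of letters in the window and no evidence of binding.

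Ebf2 and Ebf3, the relatives of Ebf1, did not rise with it. Ebf2 marks brown and beige fat precursors, and its brightest probe set had values of 6.20, 6.36, 6.45 and 6.18 in old mice, against 7.00, 6.23, 6.25 and 6.44 in young mice. The young mouse at 7.00 stood above all others, and the groups overlapped. Ebf2 differed by -0.18 ± 0.16 (SE, limma adjusted p = 0.707, 95% interval -0.54 to 0.18), and without the young mouse at 7.00 it was -0.0092. Its next probe set averaged 5.41 ± 0.03 in old and 5.62 ± 0.31 in young mice (SD, n = 4 each), and the other was dim. All 3 Ebf2 probe sets had the lower mean in old mice, by -0.18, -0.21 and -0.32, and none passed.

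Ebf3, which is also expressed in marrow stroma, had values of 5.97, 5.89, 5.77 and 5.81 in old mice, against 5.92, 5.92, 5.79 and 5.83 in young mice. The groups overlapped almost completely, and the difference was -0.005 ± 0.07 (SE, limma adjusted p = 0.987, 95% interval -0.16 to 0.15). The other Ebf3 probe sets were dim, at 3.91 and 3.79 over the 8 arrays, near the level of the control probe sets.

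The differences between related factors were tested by exact permutation of the 8 mice (two-sided, smallest possible p = 0.0286). Each factor was read by its brightest probe set. The 4 pairs of factors were chosen after their values were seen, so the p-values are descriptive and give no error rate. The difference of Ebf1 exceeded that of Ebf2 by 1.04 and that of Ebf3 by 0.86 (exact p = 0.0286 for each, adjusted p = 0.0381 over the pairs). The difference of Zfp521 exceeded that of Zfp423 by 1.03 (exact p = 0.0286, adjusted p = 0.0381). The second probe set of Zfp521, which moved less, was not put to this test. Ebf1 and Zfp521 differed from each other by -0.29, which did not pass (exact p = 0.257, adjusted p = 0.257).

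Zfp521 had the largest difference of the 10 factors. On its brighter probe set, 1451332_PM_at, old mice had 7.84, 8.12, 8.59 and 8.48, and young mice had 7.30, 6.98, 6.79 and 7.38. The groups were apart by 0.46. Zfp521 averaged 8.26 ± 0.34 in old and 7.11 ± 0.28 in young mice (SD, n = 4 each), a difference of 1.15 ± 0.18 (SE, limma adjusted p = 0.00807, 95% interval 0.74 to 1.55).

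The second probe set of Zfp521 moved less. On 1439909_PM_at, old mice had 6.15, 6.05, 5.95 and 5.93, and young mice had 5.63, 5.41, 5.44 and 5.93. The lowest old and the highest young mouse had the same value, and the difference of 0.42 ± 0.12 did not pass over all probe sets (SE, limma adjusted p = 0.113). Taken as the only reading of the gene, it did not pass either (limma adjusted p = 0.0832 over all genes). The call of Zfp521 therefore rests on 1 of its 2 probe sets, and that of Ebf1 on all 3 of its own.

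**Figure D2:**
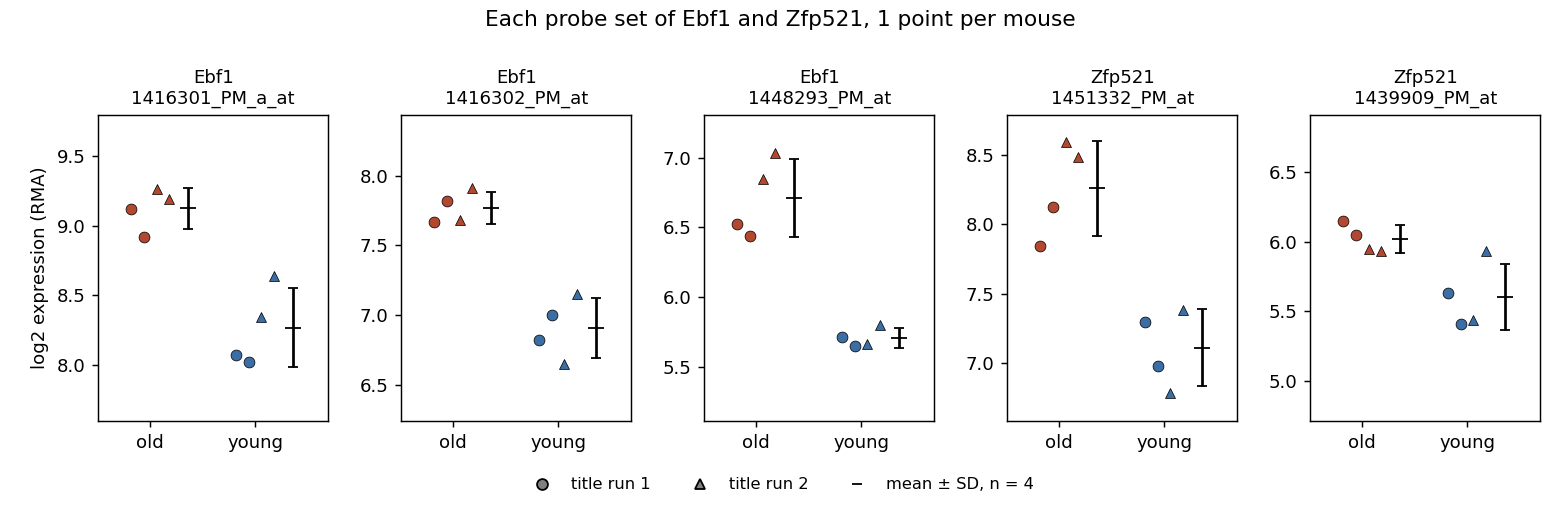
Log2 expression (RMA) on the 3 probe sets of Ebf1 and the 2 of Zfp521, with 1 point per mouse and bars for the mean ± SD (n = 4 old and 4 young mice). Old mice lie above all young mice on every Ebf1 probe set and on 1451332_PM_at, and the groups meet at 5.93 on 1439909_PM_at.

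The remaining zinc finger factors did not pass. Zfp423 had values of 5.31, 5.33, 5.87 and 5.56 in old mice, against 5.47, 5.11, 5.46 and 5.59 in young mice. Neither group stood above the other, and the difference was 0.11 ± 0.14 (SE, limma adjusted p = 0.830, 95% interval -0.21 to 0.43). Zfp467 was at the level of the control probe sets, with means of 4.18, 4.09 and 3.79 over the 8 arrays on its 3 probe sets, all of them dim. Its differences were 0.03, -0.07 and -0.05, and at this signal no level or difference of Zfp467 could be read from the arrays.

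Pparg, the nuclear receptor that fat cell formation requires, had 1 probe set and did not pass. Old mice had values of 6.60, 6.06, 6.47 and 6.52, and young mice had 6.49, 6.21, 5.92 and 6.24. The lowest old value lay among the young values. Pparg averaged 6.41 ± 0.24 in old and 6.22 ± 0.23 in young mice (SD, n = 4 each), a difference of 0.20 ± 0.14 (SE, limma adjusted p = 0.617, 95% interval -0.12 to 0.52). Whether this probe set separates the isoforms of Pparg is not given in the sources used here.

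Of the 3 Pparg windows in the RefSeq table, the downstream one is printed because it belongs to the start of the isoform enriched in fat cells and because it holds the C/EBP half-site pair searched as TTGCNNAA. Capitals mark its 2 matches, at -215 and -16 from the start, on the plus strand of chromosome 6 (GRCm38.p6).
Pparg start 3, chr6:115421816-115422115: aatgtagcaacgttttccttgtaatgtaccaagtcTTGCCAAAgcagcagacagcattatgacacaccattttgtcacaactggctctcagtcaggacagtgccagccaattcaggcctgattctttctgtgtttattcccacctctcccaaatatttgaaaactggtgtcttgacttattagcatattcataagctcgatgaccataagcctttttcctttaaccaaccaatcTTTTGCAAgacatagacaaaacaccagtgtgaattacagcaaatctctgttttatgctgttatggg
TTGCNNAA, searched on both strands, occurred in 10.8% of the promoter windows, and in 2 of the 11 windows of the factors, this one and 1 of Zfp423. The stricter palindrome TTGCGCAA, a special case of it, occurred in none of the 11 and in 0.183% of all windows. The direct repeat AGGTCANAGGTCA, bound by Pparg with its partner Rxra, was in none of the 11 and in 0.0396% of all windows. None of these matches bears on whether a factor is bound there.

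Cebpa, which keeps Pparg expressed in fat cells, had a bright signal that overlapped between the ages. Old mice had values of 8.54, 8.85, 8.83 and 8.62, and young mice had 8.60, 8.67, 8.77 and 8.36. The difference was 0.11 ± 0.11 (SE, limma adjusted p = 0.743, 95% interval -0.13 to 0.35).

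Cebpb, the early inducer, reached an unadjusted p of 0.0483 and did not pass after adjustment. On its brightest probe set, old mice had 10.38, 10.32, 10.19 and 10.07, and young mice had 9.89, 9.97, 10.11 and 10.16. The lower old values lay beside the higher young values, and the difference was 0.21 ± 0.09 (SE, limma adjusted p = 0.324). Its other probe sets differed by 0.005 ± 0.09 and 0.10 ± 0.07 (SE, limma adjusted p = 0.992 and 0.689 over all probe sets).

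Cebpd, which acts beside Cebpb, had values of 10.13, 10.10, 9.97 and 9.76 in old mice, against 9.72, 9.88, 9.76 and 10.28 in young mice. The highest value of all came from a young mouse. The difference was 0.08 ± 0.13 (SE, limma adjusted p = 0.881, 95% interval -0.22 to 0.38). For Pparg, Cebpa, Cebpb and Cebpd, the upper bounds of the intervals were 0.52, 0.35, 0.41 and 0.38.

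Over every probe set, limma called 4 of the 21 higher, all of Ebf1 or the brighter one of Zfp521, where it called 1.23% of all 45141 probe sets higher. It called 0 of the 21 lower, where it called 1.34% of all probe sets lower, and 0 were lower at an unadjusted p under 0.05, as 7.21% of all probe sets were. At that unadjusted threshold 6 of the 21 were higher, as 6.2% of all probe sets were. The groups did not overlap on 4 of the 21 probe sets, where they did not overlap on 8.42% of all probe sets. Of the 21, 15 were above the dim threshold.

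**Figure D3:**
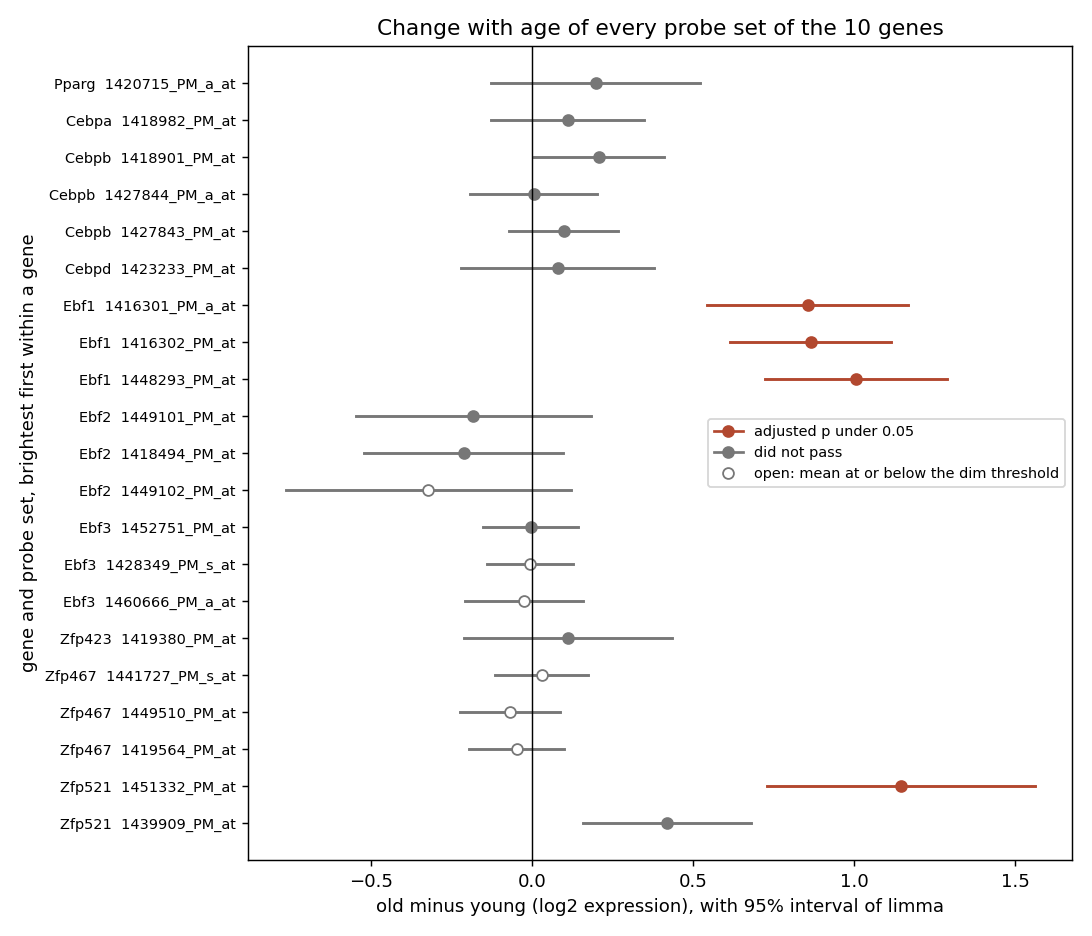
Difference, old minus young (log2, horizontal axis), with its 95% interval from limma for each of the 21 probe sets, grouped by gene, with open points for dim probe sets. The 3 probe sets of Ebf1 and 1 of Zfp521 passed an adjusted p of 0.05, and the second of Zfp521, at 0.42, did not.

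The sample titles fall into 2 runs of numbers with 2 old and 2 young mice each. Per the labels, 2 mice of each age were killed per day, but a run is not tied to a day there. Ebf1 was higher in old mice in both runs, by 0.98 in the first and 0.74 in the second. Zfp521 was higher by 0.84 in the first and 1.45 in the second. Cebpb differed by 0.42 in the first run and by -0.005 in the second, Cebpd by 0.32 and -0.16, and Pparg by -0.02 and 0.42. These 3 factors had the higher mean in old mice in 1 run only, and whether the runs differ was not tested.

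**Figure D4:**
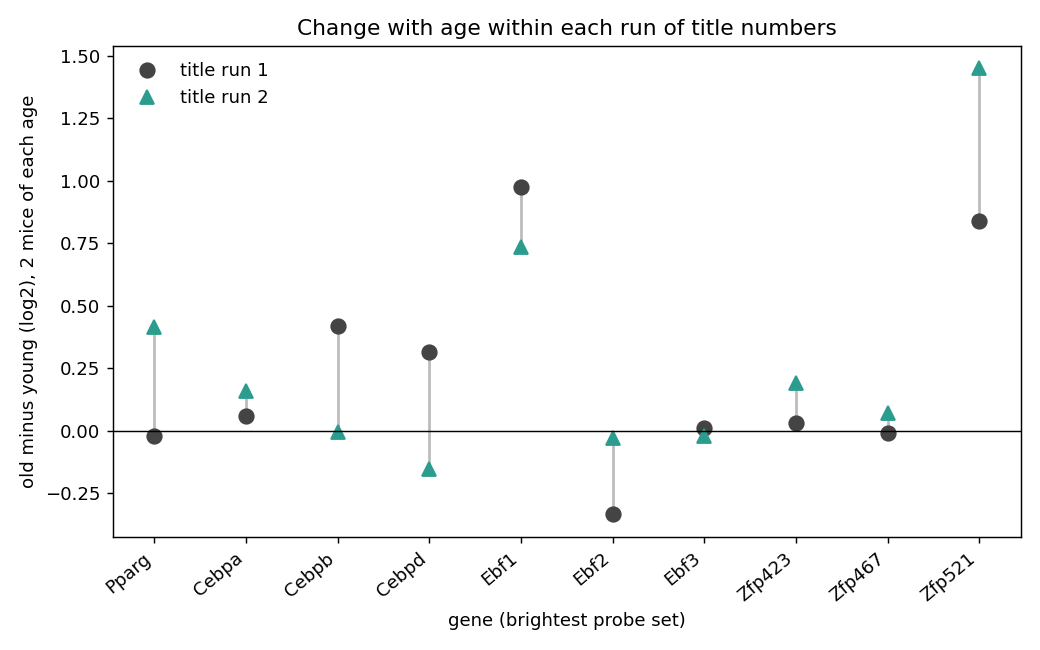
Difference, old minus young (log2), of each factor within the first and the second run of title numbers (circles and triangles), each from 2 old and 2 young mice. Ebf1 and Zfp521 lie above 0 in both runs, and Pparg, Cebpb and Cebpd lie near or below 0 in 1 of them.

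Genes with per-mouse patterns most like that of Ebf1 were sought among the 10560 genes above the dim threshold, by the mean absolute difference of centred log2 values over the 8 arrays. The closest were Selenop, which encodes a secreted selenium carrier, at 0.08, Akap12 at 0.10 and Adam22 at 0.12. Their own differences between old and young mice were 0.74, 0.85 and 0.65. For Zfp521 the closest were Sp100, a nuclear body protein, at 0.10, Tmem54 at 0.12 and Skap2 at 0.14, with differences between old and young mice of 1.00, 0.96 and 0.99. Ebf1 and Zfp521 lay 0.27 from each other, and 259 genes were closer to Ebf1 and 77 closer to Zfp521. The measure takes in the difference between the ages, which all of these genes share.

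Of the 5 measured relatives of the factors and the 13 measured partners of Pparg, none passed in either direction. In 5 of 19 alternative settings 1 partner was called higher. The relatives, Cebpg and Ppara among them, had 0 of 5 at an unadjusted p under 0.05 and a median difference of 0.07. Cebpg, a dimer partner of the other C/EBP proteins, differed by 0.28 ± 0.12 (SE, limma adjusted p = 0.337). Of the partners, 2 of 13 had an unadjusted p under 0.05, and the median was -0.03. These were Tle3, a corepressor that acts with Pparg in fat cells, at 0.50 ± 0.12 (SE, limma adjusted p = 0.0562), and the coactivator Ncoa2, at -0.31 ± 0.13 (SE, limma adjusted p = 0.270). Rxra, the dimer partner of Pparg, differed by 0.03 ± 0.13 (SE, limma adjusted p = 0.957).

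Of 20 measured factors outside the 10 that were listed as pro-adipogenic, 1 rose and 0 fell, with 9 at an unadjusted p under 0.05 and a median of 0.13. Of the 9, all but Zeb1 and Egr2 were higher in old mice. The 1 that rose was Nr4a3, whose role in fat cell formation was not tested here. Nr4a1, in the list of genes induced by dissociation, differed by -0.02. The orphan nuclear receptor Nr4a3 rose by 0.44 ± 0.10 (SE, limma adjusted p = 0.0447), and in the fit over every probe set this probe set did not pass (limma adjusted p = 0.0568) while its other probe sets, at 0.59 and 0.57, did. With 1 probe set per gene it kept an adjusted p under 0.05 in 1 of the 8 fits that left out 1 mouse, and reached 0.132 without old mouse 2. Of 27 measured anti-adipogenic factors, 0 rose and 2 fell, with 11 at an unadjusted p under 0.05 and a median of -0.02. Of the 11, all but Bhlhe40, Ctnnb1, Irf4 and Gata3 were lower in old mice. Twist2, a repressor of mesenchymal differentiation, had values of 9.30, 9.53, 9.48 and 9.54 in old mice, against 10.07, 10.05, 10.23 and 10.10 in young mice. Klf2, which represses Pparg in preadipocytes, had 8.90, 9.23, 9.04 and 8.90 in old mice, against 9.52, 9.83, 9.65 and 9.77 in young mice. For both genes all old mice lay below all young mice. Twist2 fell by 0.65 ± 0.08 and Klf2 fell by 0.68 ± 0.10 (SE, limma adjusted p = 0.00194 and 0.00508).

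Of 25 measured genes active in fat cells, 1 rose and 1 fell, with 7 at an unadjusted p under 0.05 and a median of 0.07. Of the 7, all but Angptl4 were higher in old mice. Lpl, lipoprotein lipase, rose by 0.65 ± 0.12 on its brightest probe set (SE, limma adjusted p = 0.0168), and its other probe set, at 0.27, did not pass. It kept an adjusted p under 0.05 in 5 of the 8 fits without 1 mouse, and missed it without old mouse 4 (0.0539), young mouse 1 (0.0535) or young mouse 3 (0.0550). Angptl4, an inhibitor of Lpl and a target of Pparg, fell by 0.45 ± 0.07 (SE, limma adjusted p = 0.00957), and a dim probe set of it differed by 0.10. As the mean of these probe sets, Angptl4 differed by -0.175 and did not pass (limma adjusted p = 0.335). Fabp4 and Adipoq, which fat cells express strongly, averaged 4.20 and 3.65 in old mice and 4.37 and 3.67 in young mice, near the level of the control probe sets.

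Of 16 measured markers of fat precursors, 1 rose and 2 fell, with 8 at an unadjusted p under 0.05 and a median of -0.09. Of the 8, all but Icam1 and Cd34 were lower in old mice. Cd24a, which marks early precursors and was selected against in the sort, had values of 4.87, 4.70, 5.76 and 6.00 in old mice, against 8.02, 8.18, 8.18 and 7.90 in young mice. It fell by 2.74 ± 0.27 and Thy1, a surface protein of fibroblasts, fell by 0.61 ± 0.07 (SE, limma adjusted p = 0.000785 and 0.00176). Icam1, an adhesion protein of committed precursors, rose by 0.37 ± 0.08 (SE, limma adjusted p = 0.0304). Icam1 kept an adjusted p under 0.05 in 2 of the 8 fits without 1 mouse, and reached 0.0825 without old mouse 2.

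Of 10 measured osteoblast factors, none passed, 0 had an unadjusted p under 0.05, and the median was 0.01. Of 17 measured genes induced by dissociation or acute stimulation, which include early growth response and Fos family genes, 1 rose and 0 fell, with 4 at an unadjusted p under 0.05 and a median of -0.07. Fosl2, a Fos family factor, rose by 0.45 ± 0.08 on its brightest probe set (SE, limma adjusted p = 0.0165) and differed by 0.02 on another, which did not pass. It kept an adjusted p under 0.05 in 7 of the 8 fits without 1 mouse, and reached 0.0538 without old mouse 4. Fos differed by -0.20 ± 0.08 (SE, limma adjusted p = 0.268). Over all 17097 genes, 311 rose and 368 fell, 2579 had an unadjusted p under 0.05, and the median was 0.01. At that unadjusted threshold 6.8% of all genes were higher and 8.28% lower in old mice.

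**Figure D5:**
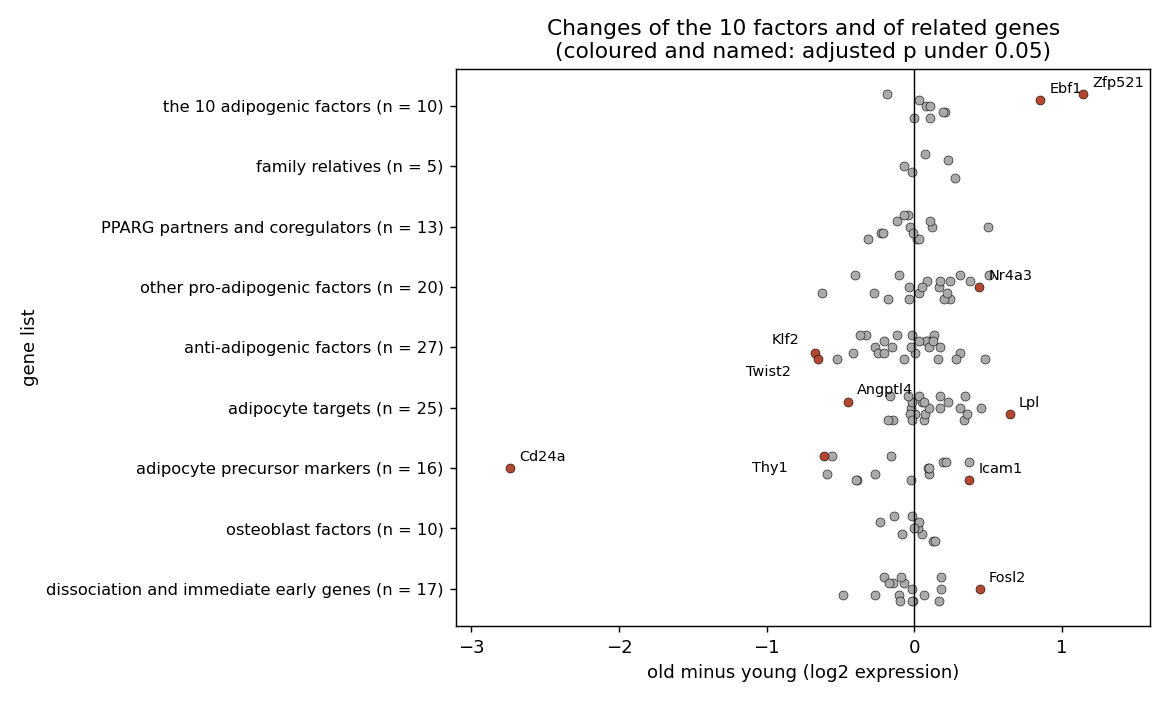
Difference, old minus young (log2), of the 10 factors (top row) and of each measured gene of the 8 lists, with 1 point per gene. Coloured and named genes passed limma's adjusted p of 0.05, and the medians of the 8 lists lie between -0.09 and 0.13, beside 0.01 over all genes.

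Markers of other cells are given beside the rise of Ebf1 and Zfp521. Of 7 B-cell markers, which matter because Ebf1 is a B-cell factor, none passed limma's test and 2 had an unadjusted p under 0.05. Their mean level was 5.373 to 5.631 in old mice and 5.201 to 5.357 in young mice, so the groups were barely apart. Of the 7, 4 were above the dim threshold. Cd79a was 7.08 in old and 6.62 in young mice (limma adjusted p = 0.0544), while Ms4a1, which mature B cells carry, was 3.89 and 3.84, at the level of the control probe sets. The part of these cells in the rise of Ebf1 was not tested.

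Of 7 mural cell markers, Kcnj8 rose by 1.16 ± 0.16 (SE, limma adjusted p = 0.0035), and Rgs5 averaged 5.01 in old and 5.05 in young mice. The mean level of these markers was 5.610 to 5.716 in old and 5.429 to 5.609 in young mice, so the groups were barely apart, and their median difference was -0.01. Of 7 markers of mature fat cells, none passed, 0 had an unadjusted p under 0.05, and the mean level was 4.62 to 4.80 in old and 4.60 to 4.83 in young mice. The keratinocyte markers had a mean level of 5.64 to 7.04 in old mice, highest in old mouse 3, and 5.44 to 6.09 in young mice. Of these 8 markers none passed, 2 had an unadjusted p under 0.05, and the median difference was 0.37. The 2 were Krt5, at 1.12, and the sorting gene Epcam, at 0.40 (limma adjusted p = 0.221 and 0.0584), while Trp63 (-0.33) and Cdh1 (-0.03) were lower. Melanocyte markers lay at 5.94 to 6.10 in old and 5.39 to 5.65 in young mice. Schwann cell markers lay at 5.90 to 6.13 and dermal papilla markers at 4.78 to 5.19 in old mice, against 6.15 to 6.33 and 5.22 to 5.35 in young mice. Old and young mice were apart on these 3 lists too. They were barely apart for Schwann cell markers (6.125 against 6.145 at the closest) and papilla markers (5.194 against 5.219). The melanocyte gene Mlana rose by 2.88, the Schwann cell gene Ncam1 fell by 0.94 and the papilla gene Crabp1 fell by 2.32 (limma adjusted p = 0.00194, 0.0129 and 0.000166). No other gene of the 3 lists passed. Their median differences were 0.11, -0.01 and -0.06. Mitf (0.57), Tyr (0.12) and Dct (0.105) differed in the direction of Mlana, and Tyrp1 (-0.06), Pmel (-0.09) and Sox10 (-0.005) in the other. S100b (-0.01) and Sox10 differed in the direction of Ncam1, and Mbp (0.07) in the other. Lef1 (-0.32), Itga8 (-0.10), Rspo3 (-0.09), Sox2 (-0.035) and Corin (-0.025) differed in the direction of Crabp1. Sox18 (0.32) and Alx4 (0.0125) went the other way. Mitf and Lef1 had an unadjusted limma p of 0.0262 and 0.0151. Of the 12 lists of other cells, those of fat cells and keratinocytes overlapped between old and young mice. So did those of T cells, macrophages and monocytes, mast cells, endothelial cells and skeletal muscle. The part of all these cells in the results was not tested.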

How the data were processed

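Per the submitters' processing notes the tools were affy and RMA, and the authors deposited log2 RMA expression values for 8 arrays and 45141 probe sets, which were used as deposited, with no further normalization. RNA from 5000 cells was amplified over 21 cycles, per the labels' protocols. No array duplicated another. The platform annotation gave 1 symbol to 28898 probe sets, several to 551 and none to 15692, and 28689 of the first matched the mouse gene table, with 0 symbols changed. Each of 17097 genes was read by its brightest probe set. A second fit used every probe set. Old and young mice were compared with limma 3.58.1 (R 4.3.3; lmFit, eBayes, Benjamini-Hochberg over all features, threshold 0.05), checked on simulated data. There the test recovered 52% of changes of 0.5 and 92% of changes of 1 (log2), and called 0 genes when none was changed. The simulated noise was independent between genes and arrays and held no title runs, so these values give no error rate for the real arrays. The members and lists were chosen with earlier results of these data known. Members were taken out of the lists. Named are all members, the called genes of each list (at most 6) or else the 2 with the smallest p, Fabp4, Adipoq, Lpl, Rxra and Fos, the sorting genes, and the 3 genes nearest to each called member. Plin1 and Runx2 were not analysed here. Promoter windows are RefSeq's (GRCm38.p6). Windows on 1 chromosome were left out of the search and of its background shares, and no windows of Cebpd, Ebf2 and Zfp521 were used here. Alternatives were each mouse left out, other probe sets per gene, filters, scalings and thresholds, and the run of title numbers as a block. Mice are separate animals, and their number, 4 per group, limits the precision.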

Additional observations from a re-analysis of the deposited data

Results flagged for a closer look

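Of 104 groups of 4 mice examined, 4 held a mouse whose gap to its nearest neighbour, as a share of the group's range, exceeded Dixon's 95% critical value, and chance flags about 1 group in 20. The young mice on the brightest Zfp467 probe set had a share of 0.909, with mouse 3 at 4.08 and the others at 4.18 to 4.19, all dim. The young mice had a share of 0.867 for Fosl2, with mouse 4 at 9.27 and the others at 9.53 to 9.57. For Fabp4 the share was 0.912, with young mouse 1 at 5.03 and the others at 4.12 to 4.20. For Adipoq it was 0.913, with young mouse 3 at 3.50 and the others at 3.71 to 3.73.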

How the results depend on the processing

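Ebf1 stayed past the threshold in 17 of 17 alternatives, with differences from 0.77 to 1.01 and adjusted p from 0.00107 to 0.0311, the highest without old mouse 4. Zfp521 stayed past it in 16 of 17, with differences from 0.42 to 1.29. The exception read each gene by the dimmest of its probe sets that was not dim (0.42, adjusted p = 0.0832), which left 1 of the 10 factors called higher. The other 8 factors passed in none of their alternatives. Differences near 0 turned sign for Ebf3, Zfp423 and Zfp467. Ebf3 ranged from -0.0417 to 0.025 over the fits without 1 mouse, and was 0.025 without old mouse 3, 0.0117 without old mouse 4 and 0.0133 without young mouse 1 or young mouse 2. Zfp423 ranged from -0.0075, without old mouse 3, to 0.18. Zfp467 ranged from -0.0033, without old mouse 3, to 0.0567, and was -0.0292 as the mean of its probe sets. The second probe set of Zfp521 passed with array weights (0.45, adjusted p = 0.0458) and without young mouse 4 (0.53, adjusted p = 0.0182). The cause of these changes was not tested. Over all genes, 679 calls became 270 at a threshold of 0.01, 1082 at 0.1, 919 with the title run as a replicate block, and 427 to 606 without 1 mouse. Without old mouse 2, 3 or 4 or young mouse 3 they were 427, 451, 445 and 448. Deviations of old and young mice of the same run correlated at 0.07 to 0.24, and of different runs at -0.26 to -0.02. Deviations from a group's mean sum to 0, so the opposite signs of these ranges are tied and are not separate results. Under that block Ebf1 and Zfp521 stayed called (adjusted p = 0.00169 and 0.00682). List genes that passed with the block and not without it were Tle3 (adjusted p = 0.0401), Bhlhe40 (0.0425), Plin4 (0.0314) and Mgst1 (0.0287), higher in old mice, and Zeb1 (0.0197), Egr2 (0.0143), Foxc2 (0.0396), Wwtr1 (0.0429), Pdgfra (0.0464) and Clec11a (0.0324), lower. Calls under the block were thus 1 higher among partners, 2 lower among pro-adipogenic factors, 1 higher and 4 lower among anti-adipogenic factors, 3 higher among fat cell genes and 4 lower among precursor markers. Foxc2 and Pdgfra, which are in these counts, were dim, at 4.325 and 4.76 over the 8 arrays. Of the partners, 1 also passed with array weights, with dim genes left out, as the mean of the probe sets and at a threshold of 0.1. Low signal over background leaves Zfp467, Ebf3's other probe sets, Pdgfra and Foxc2 unreadable or uncertain.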
